A study of Mus musculus with 3 samples.

Results

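The genes of MHC class I antigen presentation were followed as a set of 10 in single cells of mouse brain, across cell classes, antibody-gated subsets, Cx3cr1 genotypes and metastasis. The 10 members were chosen by name, not by their values, although with earlier results of these data known. They were B2m, H2-K1, H2-D1, Tap1, Tap2, Tapbp, Nlrc5, Psmb8, Psmb9 and Erap1. All 10 were rows of both deposited tables, which held 19208 genes for metastasis-bearing and 17453 genes for naive brains. The cells came from 8 brains of female C57Bl/6 mice aged 2 to 3 months, of which 1 hemisphere each was digested and enriched for immune cells on a Percoll gradient. In the metastasis-bearing state the mice had received E0771 cells, a mouse mammary tumour line, through the carotid artery some 2 weeks before, and 2 brains were Cx3cr1+/- (heterozygous) and 2 were Cx3cr1-/- (homozygous). The naive state had no tumour cells and the same 2 brains per genotype. Every brain lacked at least 1 Cx3cr1 allele, so no group was wild type for this receptor of the chemokine fractalkine. All 8 brains were marked with hashtags (barcoded antibodies), pooled and sequenced as 1 preparation, with 35 further surface antibody tags.

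MHC class I molecules show peptides from inside the cell to CD8+ T cells. Cytosolic proteins are cut by the proteasome, and in interferon-exposed and many immune cells its catalytic subunits are replaced by the immunoproteasome subunits Psmb8, Psmb9 and Psmb10. The transporter Tap1-Tap2 carries the peptides into the endoplasmic reticulum, where Erap1 trims them and tapasin (Tapbp) helps to load them onto a heavy chain such as H2-K1 or H2-D1, paired with beta-2 microglobulin (B2m). Nlrc5 is the transactivator that acts at class I promoters. Resting microglia, the resident macrophages of the brain, are known for modest class I expression that rises with inflammation, and many tumours lower it.

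The promoter windows are shown because the heavy chains, B2m and Tap1 differ in their exact matches to control motifs known from class I genes. Another reason is that H2-K1 and H2-D1, which are near copies there, were counted apart. RefSeq (GRCm38.p6) gave a promoter entry for 8 of the 10 members, and each window is the 200 bases before the transcript start, read 5' to 3' on the gene's own strand. Motifs were searched on both strands and stand in capitals. They were a kappaB site (GGGATTCCC), the core of an interferon-stimulated response element (TTTCACTT), the X2 box of the SXY module (TGACG) and the Y box (CCAAT, printed as ATTGG where it lies on the other strand). H2-K1 had 2 promoter entries, and the window printed is that of a transcript that starts inside the annotated gene span.
H2-K1 (chr17:34000348-34000547, minus strand): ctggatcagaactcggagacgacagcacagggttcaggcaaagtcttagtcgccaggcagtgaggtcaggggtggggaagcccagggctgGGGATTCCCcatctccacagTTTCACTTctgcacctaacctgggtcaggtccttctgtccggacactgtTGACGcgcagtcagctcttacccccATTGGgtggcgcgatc
H2-D1 (chr17:35262894-35263093, plus strand): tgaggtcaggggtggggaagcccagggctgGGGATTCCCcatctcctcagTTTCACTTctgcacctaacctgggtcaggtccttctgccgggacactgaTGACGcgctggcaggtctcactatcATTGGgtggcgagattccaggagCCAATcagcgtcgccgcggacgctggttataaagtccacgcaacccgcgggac
B2m (chr2:122147487-122147686, plus strand): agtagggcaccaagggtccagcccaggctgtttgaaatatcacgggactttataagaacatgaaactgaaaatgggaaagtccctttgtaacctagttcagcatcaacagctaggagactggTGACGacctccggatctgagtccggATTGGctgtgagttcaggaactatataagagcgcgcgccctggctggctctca
Tap1 (chr17:34187356-34187555, plus strand): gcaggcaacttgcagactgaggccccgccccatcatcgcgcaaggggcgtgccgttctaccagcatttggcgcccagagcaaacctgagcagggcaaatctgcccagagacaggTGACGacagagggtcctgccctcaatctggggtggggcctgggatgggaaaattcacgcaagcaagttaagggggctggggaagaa

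In H2-K1 the kappaB site began 110, the interferon element 90, the X2 box 41 and the Y box 16 bases before the start. In H2-D1 the same order was found at 170, 150, 101 and 76 bases, followed by another Y box at 53 bases. Over a local alignment of 139 columns the 2 windows were identical at 127, or 91.4%. B2m held an X2 box at 78 and a Y box at 53 bases, and Tap1 an X2 box at 86 bases with no Y box match. Psmb9, on the minus strand, starts 226 bases from Tap1, and its window held an X2 box at 144 and a Y box at 8 bases. The Tap1 and Psmb9 windows overlap, and their X2 box is the same stretch read from opposite strands. The Tapbp window held a Y box at 165 bases, and those of Psmb8 and Erap1 held none of the 4 motifs. Of all 32851 promoter windows of this length, 0.213% held the kappaB site, 1.03% the interferon element, 15.7% the X2 box and 29.3% the Y box, so the 2 short boxes are common. The search was for these exact letters, so a variant form of a motif was not counted and the lack of a match does not show its absence. A match describes letters only and says nothing of binding.

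Values are depth-corrected UMIs (barcoded RNA molecules) that were summed per brain and cell class and scaled to 1000000 per brain and class (CPM, counts per 1000000). A total of 1138 barcodes occurred in the metastasis and the naive table alike and were dropped. This left 1354 and 2610 cells in the 2 heterozygous and 2925 and 1554 cells in the 2 homozygous metastasis-bearing brains, and 957, 537, 337 and 905 cells in the naive brains in the same order. Brains are named here as heterozygous 1 and 2 and homozygous 1 and 2 within each state, and a level is given where a brain had at least 20 cells of the class. The authors' clusters were named from marker lists, and a cluster high in Krt8, Wfdc2 and cycling genes is called Krt8-high because no label names the tumour cells. Its Ptprc (CD45) level was 0.888 to 6.92 CPM, against 367 to 500.1 CPM in microglia-like cells of the same brains. Reads from the 3' end of H2-K1 and H2-D1, near-identical genes, could be split between them in the counting, so values of these 2 genes are uncertain to that degree.

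**Figure D1:**
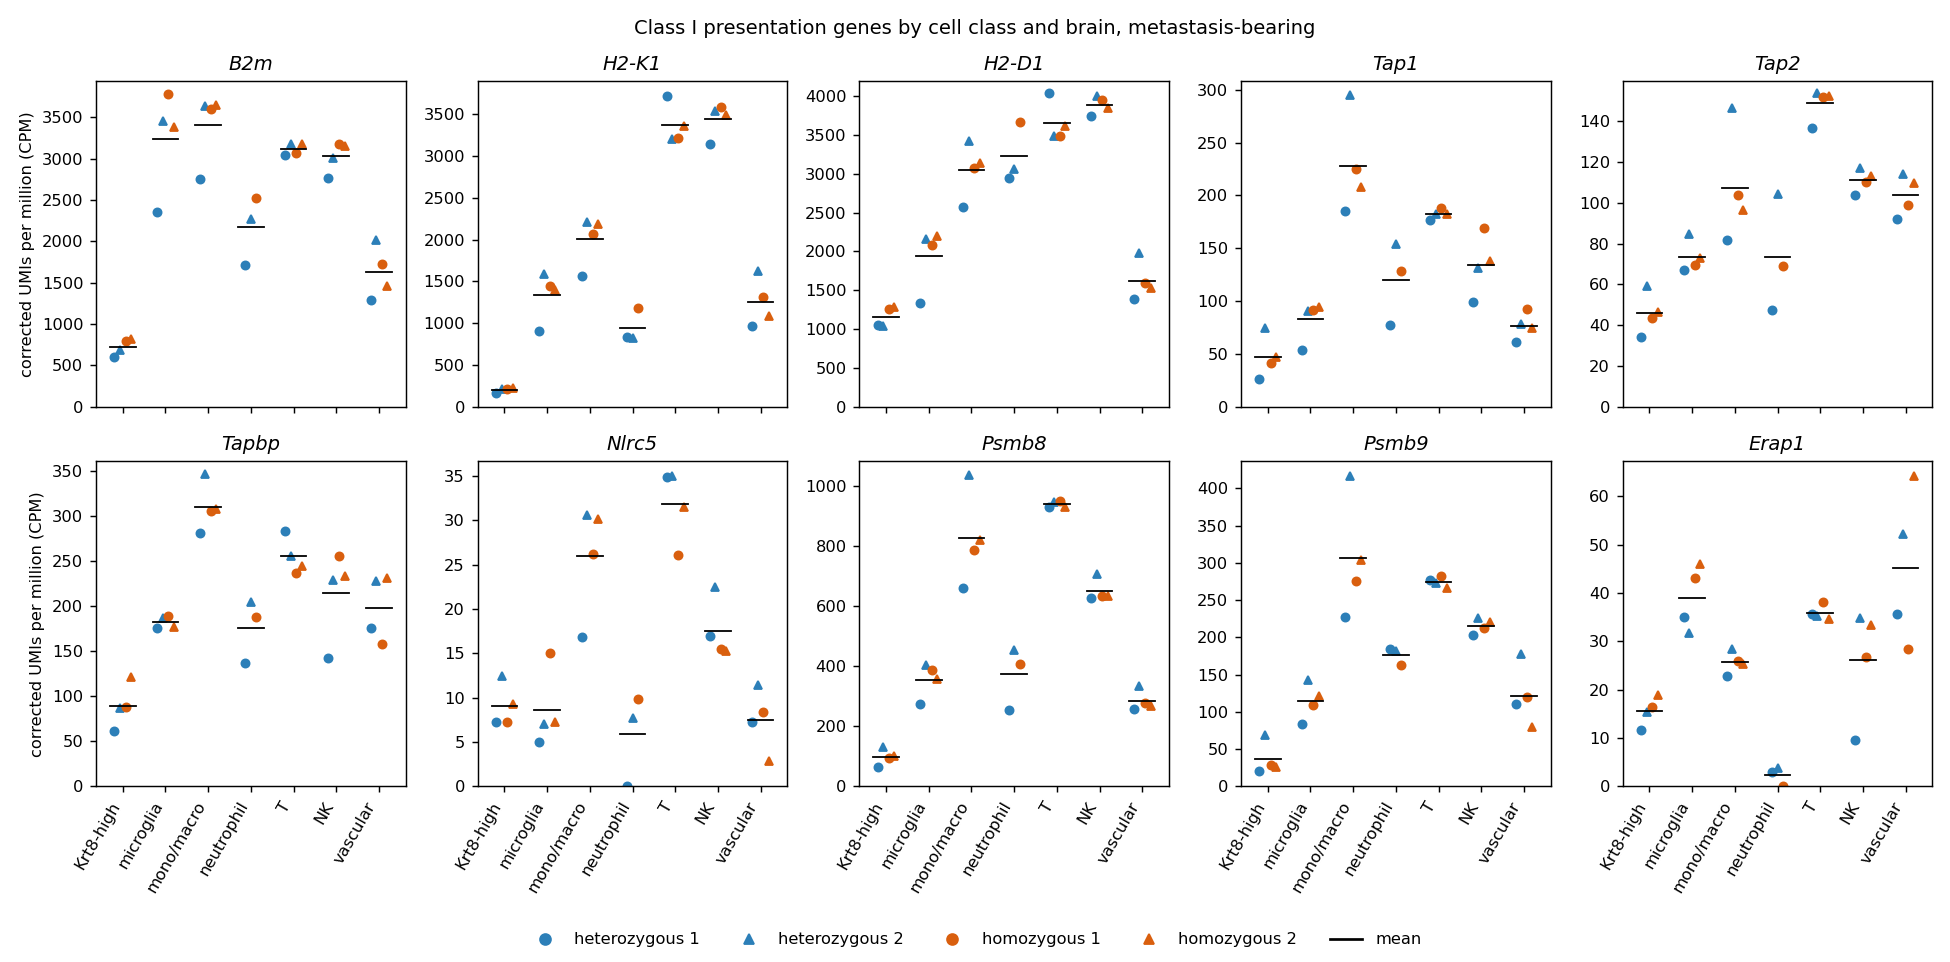
Level of each of the 10 genes (vertical axes, corrected UMIs per 1000000, each panel with its own scale from 0) in 7 cell classes (horizontal axes) of metastasis-bearing brains. Points are brains (circle 1, triangle 2; blue heterozygous, orange homozygous) and bars are class means; the Krt8-high mean is the lowest for 8 of the 10 genes, with all its points below all others for 6, and the means of Nlrc5 and Erap1 are lowest in neutrophil-like cells.

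The heavy chains and B2m were lowest in Krt8-high cells in every metastasis-bearing brain. H2-K1 was 157 and 206 CPM in the heterozygous and 211 and 219 CPM in the homozygous brains in Krt8-high cells. In T-like cells of the same brains it was 3721, 3210.1, 3218 and 3362 CPM, and in NK-like cells 3143, 3537, 3593 and 3487 CPM. The class means ran from 3440.1 CPM ± 203 (SD, n = 4) in NK-like and 3378 ± 239 in T-like cells, whose ranges overlapped, to 2006 ± 304 in monocyte/macrophage-like cells. Microglia-like (1332 ± 299.5), vascular-like (1248 ± 288) and neutrophil-like cells (946 ± 202, n = 3) came next, each overlapping its neighbour in this order. Krt8-high cells, at 198 ± 28.0, stood apart below all of them. The mean of NK-like cells was 17.4-fold that of Krt8-high cells.

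H2-D1 was less far apart. It was 1056 and 1034 CPM in Krt8-high cells of the heterozygous and 1259.9 and 1287 CPM in those of the homozygous brains, and 3747, 4004, 3959 and 3853 CPM in NK-like cells. The means were 3891 CPM ± 115 in NK-like, 3662 ± 265 in T-like, 3229 ± 387 in neutrophil-like (n = 3) and 3056 ± 357 in monocyte/macrophage-like cells, with overlap between neighbours. Microglia-like (1946 ± 412) and vascular-like cells (1625 ± 257) lay below these and overlapped each other, and Krt8-high cells were lowest at 1159 ± 133. NK-like cells had 3.36-fold the H2-D1 level of Krt8-high cells. Neutrophil-like cells were thus high in H2-D1 and low in H2-K1.

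B2m, the light chain that every class I molecule needs, was 605 and 685 CPM (heterozygous) and 799 and 815 CPM (homozygous) in Krt8-high cells. It was 2748, 3636, 3594 and 3648 CPM in monocyte/macrophage-like and 2352, 3453, 3779 and 3384 CPM in microglia-like cells. In both myeloid classes heterozygous brain 1 was the lowest of the 4. Means of monocyte/macrophage-like (3407 ± 439.6), microglia-like (3242 ± 618), T-like (3115 ± 72.9) and NK-like cells (3026 ± 184) overlapped from one to the next. Neutrophil-like (2167 ± 413, n = 3) and vascular-like cells (1623 ± 320.3) followed, and Krt8-high cells were at 726 ± 99.2.

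The ratio of H2-K1 to H2-D1 set the classes apart more narrowly than either level. It was 0.148 and 0.199 in Krt8-high cells of the heterozygous and 0.168 and 0.170 in those of the homozygous brains. In T-like cells it was 0.919, 0.920, 0.923 and 0.928, a range of under 0.01. The mean was 0.171 ± 0.0208 in Krt8-high cells, 0.291 ± 0.0272 in neutrophil-like (n = 3), 0.654 ± 0.0374 in monocyte/macrophage-like, 0.684 ± 0.0420 in microglia-like, 0.762 ± 0.0663 in vascular-like, 0.884 ± 0.0319 in NK-like and 0.922 ± 0.00382 in T-like cells. Ranges of Krt8-high and neutrophil-like cells overlapped with no other class and not with each other. In the naive table the ratio was 0.196, 0.432 and 0.361 in the 3 brains with enough Krt8-high cells, 0.750 ± 0.0214 in microglia-like (n = 4) and 1.11 ± 0.0633 in T/NK-like cells (n = 4). In the ratio both genes are read from the same cells, and the share of reads that the counting could have moved between them is not given in the sources used here.

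**Figure D2:**
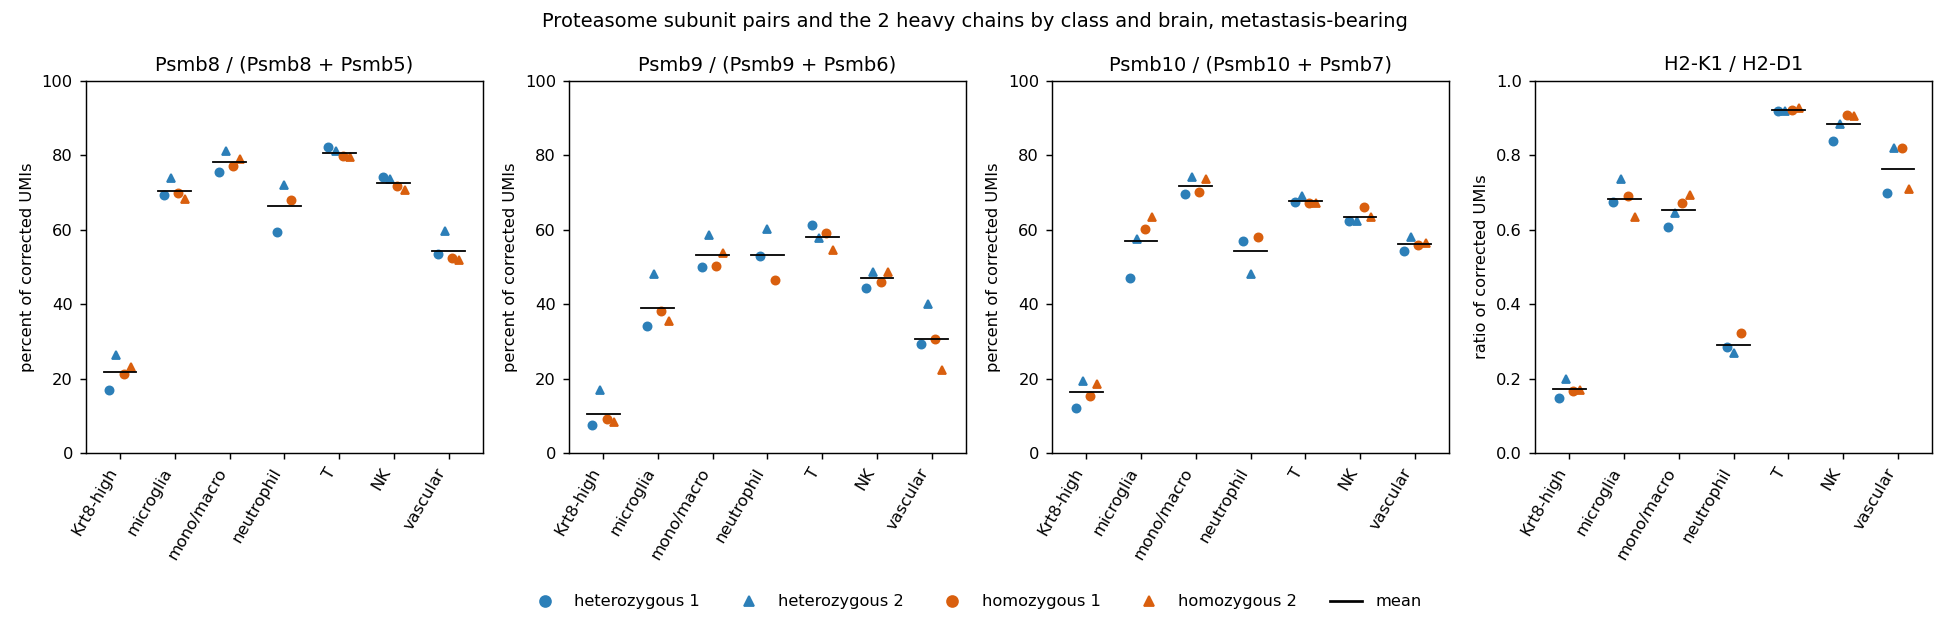
Share of the immunoproteasome subunit in each pair of proteasome subunits (first 3 panels, percent of the corrected UMIs of the pair) and ratio of H2-K1 to H2-D1 (last panel) in 7 classes of metastasis-bearing brains. Points are brains as in the legend and bars are means; Krt8-high cells lie lowest in all 4 panels, with a mean of 21.9% for Psmb8 and a ratio of 0.171.

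The peptide transporter and tapasin followed the same lower end but with less distance. Tap1 was 25.9 and 74.7 CPM in heterozygous and 40.9 and 46.9 CPM in homozygous Krt8-high cells, so heterozygous brain 2 overlapped the vascular-like (61.4 to 92.3 CPM) and microglia-like cells (53.5 to 94.7 CPM). The highest mean was 228 CPM ± 47.4 in monocyte/macrophage-like cells, then 183 ± 4.85 in T-like and 134 ± 28.8 in NK-like cells. Tap2, the partner subunit, was 34.1, 59, 43.6 and 46.2 CPM in Krt8-high cells, and its mean was highest in T-like cells (149 ± 7.99), whose range overlapped that of monocyte/macrophage-like cells alone. Tapbp was 61, 87.5, 88.1 and 122 CPM in Krt8-high cells and highest in monocyte/macrophage-like cells at 310.1 ± 27.0, whose range overlapped that of T-like cells (mean 255).

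The immunoproteasome subunits were also low in Krt8-high cells. Psmb8 was 66.5 and 131 CPM in heterozygous and 93.7 and 101 CPM in homozygous Krt8-high cells, against 933, 949, 952 and 932 CPM in T-like cells. The T-like mean of 941 ± 10.4 was 9.59-fold the Krt8-high mean of 98.2 ± 26.6. Psmb9 was 20.3, 69.2, 29.2 and 26.3 CPM in Krt8-high cells, and heterozygous brain 2 stood above the others. Monocyte/macrophage-like (306 ± 80.2) and T-like cells (275 ± 6.71) had the highest Psmb9 means and overlapped.

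Each immunoproteasome subunit was also set against the constitutive subunit whose place it takes, from the same cells. Psmb8 made up 21.9% ± 4.02 of Psmb8 plus Psmb5 in Krt8-high cells and 80.7% ± 1.34 in T-like cells. Between these, vascular-like cells had 54.4% ± 3.64, neutrophil-like 66.4% ± 6.47 (n = 3), microglia-like 70.4% ± 2.42, NK-like 72.6% ± 1.60 and monocyte/macrophage-like cells 78.3% ± 2.47. Psmb9 made up 10.4% ± 4.34 of Psmb9 plus Psmb6 in Krt8-high cells, 30.6% ± 7.34 in vascular-like and 58.1% ± 2.80 in T-like cells. Psmb10 made up 16.3% ± 3.32 of Psmb10 plus Psmb7 in Krt8-high cells and 54.4 to 71.9% on average in the other 6 classes. Krt8-high cells had the lowest share in all 3 pairs, with no overlap with another class. In microglia-like cells the Psmb9 share was 38.9% ± 6.33 in metastasis-bearing and 35.5% ± 1.79 in naive brains.

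Nlrc5 and Erap1 had another order. Nlrc5 was low everywhere, with 7.24 and 12.4 CPM in heterozygous and 7.3 and 9.26 CPM in homozygous Krt8-high cells. Its mean was 31.8 CPM ± 4.14 in T-like, 25.9 ± 6.38 in monocyte/macrophage-like and 17.5 ± 3.37 in NK-like cells, while Krt8-high (9.05 ± 2.42), microglia-like (8.60 ± 4.39), vascular-like (7.49 ± 3.55) and neutrophil-like cells (5.86 ± 5.19, n = 3) overlapped. Erap1, the trimming peptidase, was highest in vascular-like (45.1 ± 16.1) and microglia-like cells (39.0 ± 6.78), where the other members were not. In Krt8-high cells it was 11.7, 15.3, 16.3 and 18.9 CPM. Neutrophil-like cells had 2.97, 3.86 and a listed 0 CPM in the 3 brains with enough cells, below every brain of every other class.

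Krt8-high cells had the lowest class mean for 8 of the 10 members, all but Nlrc5 and Erap1. Among all 8217 genes with a mean over the 7 classes above 10 CPM, 21.3% were lowest there. For 6 members (B2m, H2-K1, H2-D1, Tapbp, Psmb8 and Psmb9) every Krt8-high brain lay below every brain of the 6 other classes, a pattern found for 8.41% of all genes. Clusters were made from RNA, so these counts describe the classes and no test was made between them. Krt8-high cells also differed in depth, with a median of 96635 to 116929 raw UMIs per cell and brain against 3155 to 12596 in the other 6 classes. Within Krt8-high cells, the deeper cells of a brain had on average 0.588 (Erap1) to 0.864 (H2-D1) of the level of the shallower cells, below 1 for every member. The part of depth in the low levels was not tested, because the cell classes hardly overlap in raw UMIs.

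Single cells were set apart from T-like cells as well, but not from every class. The 10 members together had a median of 17.2 and 18.8 per 10000 corrected UMIs in heterozygous and 24.1 and 25.1 in homozygous Krt8-high cells. In T-like cells the medians were 123, 113, 109.8 and 115, and in microglia-like cells 48.0, 73.1, 78.0 and 74.7. The 90th percentile of Krt8-high cells, at most 44.8, lay below the 10th percentile of T-like cells, at least 64.4. The corrected H2-K1 value was 0 in 86 of 231, 39 of 217, 294 of 1629 and 95 of 655 Krt8-high cells, and that of H2-D1 in 0, 0, 0 and 1 of them. A corrected 0 does not show that no molecule was counted, as these cells were scaled down from far more raw UMIs, so no such share is compared with other classes.

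Other genes of the pathway, from lists chosen along with the members, were mixed in Krt8-high cells. H2-T23 and H2-Q7, heavy chains outside the classical set, averaged 2.91 and 1.97 CPM there, against 483 and 807 CPM in T-like cells. Irf1, an interferon-induced transcription factor, averaged 27.6 CPM against 88.3 to 226 CPM in the other classes. The chaperones were not low, with means of 622 CPM for Calr and 341 CPM for Canx, the highest class mean of Canx. Among Krt8-high brains, heterozygous brain 2, with the highest Tap1, Tap2, Psmb8 and Psmb9, also had the highest sum of 12 T cell markers (23.7 against 1.72 to 6.70 CPM) and of 7 NK cell markers (31.0 against 0.345 to 12.8 CPM). The part of such RNA in its levels was not tested.

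The hashtag libraries gave a surface readout beside the RNA. The hashtag antibodies' target is not given in the sources used here, and reagents of this kind are commonly directed at CD45 and H-2 class I proteins. The median hashtag count per cell was 738 and 1176 in heterozygous and 527 and 452 in homozygous Krt8-high cells. It was 199, 259.5, 335 and 287 in microglia-like cells and 1764 to 2579.5 in T-like cells. Krt8-high cells thus carried more hashtag per cell than microglia-like cells in every metastasis-bearing brain. Their B2m, H2-K1, H2-D1 and Ptprc RNA was lower in CPM, which is a share of corrected UMIs and not a count per cell. The median of raw UMIs per cell was 96635 to 116929 in Krt8-high and 7850.5 to 12596 in microglia-like cells of these brains. RNA molecules of these genes per cell were not compared, so the lower shares do not show less of this RNA per cell. In naive brains the hashtag order was the other way, with 45 to 66 in Krt8-high and 90 to 159 in microglia-like cells. Dropped barcodes of both tables that were Krt8-high in the metastasis table had a median of 604 hashtag UMIs there and 35 in the naive table. For T-like barcodes these medians were 3185 and 28, and for microglia-like barcodes 413 and 113. The naive Krt8-high counts were thus low as well, and the assignment of these cells to naive brains was not tested.

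Subsets that the authors gated on surface antibody tags allowed a test, since the gates were set on the tags and not on the RNA clusters. The gates used held no Krt8-high cell. Whether RNA played any part before the gating is not given in the sources used here. In metastasis-bearing brains 6 subsets had at least 20 cells in every brain and were compared with the CD45-low CD11b+ subset, the gate in which microglia fall, with brain as a block (limma on log2 of CPM plus 10, 7510 genes). That reference held 60.1% microglia-like, 12.9% monocyte/macrophage-like and 19.0% unnamed cells by cluster. The 6 comparisons share it, so a brain that is low there raises all 6 differences. BMDM is the authors' label, by usage bone marrow-derived macrophages. Differences are on the log2 scale.

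In the CD4+ T subset (84.2% T-like cells) 8 of the 10 members were higher and none lower, all but B2m and Erap1. Of all genes 39.7% were called there, 18.1% higher and 21.5% lower. H2-K1 was 4143, 3167, 3930.0 and 4073 CPM in the CD4+ T subset and 968, 1709, 1350.5 and 1549.9 CPM in the reference, without overlap. The rise of 1.47 (SE 0.18, limma adjusted p = 3.87e-07) was seen in 4 of 4 brains. Psmb9 rose by 1.29 (SE 0.182, limma adjusted p = 3.12e-06), Psmb8 by 1.21, Tap1 by 1.01, Tap2 by 1.00, H2-D1 by 0.93, Nlrc5 by 0.86 and Tapbp by 0.63. B2m differed by 0.27 (limma adjusted p = 0.13) and Erap1 by 0.23 (limma adjusted p = 0.412). Without heterozygous brain 2, B2m passed (0.39) and the Nlrc5 call was lost (0.85). Over the 10 members the median difference was 0.97, and over all genes -0.04.

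In the CD8+ T subset (91.7% T-like) 7 members were higher and none lower, where 46.4% of all genes were called, 16.9% higher and 29.4% lower. Psmb8 was 894, 848, 922 and 1006 CPM, against 269.6, 517, 399.8 and 494 CPM in the reference. It rose by 1.15 (SE 0.177, limma adjusted p = 8.17e-06), Psmb9 by 1.10, H2-K1 by 1.09, Nlrc5 by 0.85, Tap1 by 0.59, Tap2 by 0.59 and H2-D1 by 0.46. Tapbp (0.29), Erap1 (0.39) and B2m (0.07) did not pass. Tapbp passed with median-ratio scaling (0.38) and with all deposited cells (0.33). The Nlrc5 calls of both T subsets were lost with a pseudocount of 1 in place of 10, at differences of 1.26 (CD4+) and 1.24 (CD8+). Every fit that left out 1 brain lost at least 1 of the 7 CD8+ calls, namely H2-D1 without heterozygous brain 1 (0.26), Nlrc5 without heterozygous brain 2 (0.90), H2-D1 (0.45) and Tap1 (0.53) without homozygous brain 1, and Tap2 without homozygous brain 2 (0.49). The members' median was 0.59 and that of all genes -0.13.

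Among the subsets labelled BMDM, the Ly6C-low one had 6 members higher and none lower, where 22% of all genes were called, 11% higher and 11% lower. By cluster it was a mixture of 42.5% NK-like and 45.3% monocyte/macrophage-like cells. Psmb9 rose by 1.02 (SE 0.182, limma adjusted p = 0.000221), H2-K1 by 0.93, Psmb8 by 0.93, Tap1 by 0.84, H2-D1 by 0.72 and Tapbp by 0.45. Tap1 was even between its brains, at 183, 202, 197 and 198 CPM, while the reference held 61.1, 146, 97.5 and 135 CPM. Tap2 (0.37), B2m (0.28), Nlrc5 (0.25) and Erap1 (0.13) did not pass. The Tapbp call was lost without heterozygous brain 1 (0.40), homozygous brain 1 (0.42) or homozygous brain 2 (0.46).

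The Ly6C-high subset (92.4% monocyte/macrophage-like) had 5 members higher and none lower, where 35.1% of all genes were called, 15.4% higher and 19.7% lower. Tap1 was 170.3, 295, 236 and 189 CPM and rose by 0.99 (SE 0.176, limma adjusted p = 0.000102). Psmb9 rose by 0.88, Psmb8 by 0.82, Tapbp by 0.67 and H2-D1 by 0.50, while H2-K1 differed by 0.28 (95% interval -0.09 to 0.65) and B2m by 0.24 (-0.05 to 0.53). Nlrc5 (0.52), Tap2 (0.23) and Erap1 (-0.16) did not pass either, and Nlrc5 passed at 0.60 with all deposited cells. The H2-D1 call was lost without heterozygous brain 1 (0.41) or homozygous brain 1 (0.49).

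The Ly6C+ Ly6G+ subset (59.7% neutrophil-like, 37.1% monocyte/macrophage-like) had 3 members higher and 1 lower, where 47% of all genes were called, 12.4% higher and 34.7% lower. H2-D1 was 3294, 3339, 3605 and 3887 CPM, above every reference brain (1452, 2429, 1963 and 2524 CPM), and rose by 0.78 (SE 0.154, limma adjusted p = 0.000249). Psmb9 rose by 0.77 and Tap1 by 0.59, while Psmb8 (0.36), Tapbp (0.27), Nlrc5 (0.19), H2-K1 (0.16), B2m (0.03) and Tap2 (-0.10) did not pass. Erap1 was 6.08, 14.5, 10.1 and 29.1 CPM against 27.9, 30.4, 22.5 and 19.8 CPM, and fell by 0.56 (limma adjusted p = 0.0284). The Erap1 call was lost with a pseudocount of 50 (-0.22), with median-ratio scaling (-0.42), with all deposited cells (-0.19) and without heterozygous brain 1 (-0.34), heterozygous brain 2 (-0.51) or homozygous brain 1 (-0.52). Scaling mattered here, since the median of all genes was -0.28 and became -0.12 under median-ratio scaling, a shift of 0.17, and the share of calls that were higher went from 26.3 to 44.6%. Under it Tapbp (0.51) and Psmb8 (0.60) also passed, and with all deposited cells both passed at 0.45.

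In the CD45-low CD11b- subset (47.2% vascular-like, 29.2% unnamed) B2m alone was called, where 32.5% of all genes were, 16.4% higher and 16.1% lower. B2m was 1260.3, 2259, 1201 and 1730.1 CPM, below the reference in each brain (2112, 3171, 2862 and 2860.1 CPM). It fell by 0.80 (SE 0.139, limma adjusted p = 5.98e-05). H2-K1 differed by -0.02, with a 95% interval of -0.39 to 0.35 (limma adjusted p = 0.945). The other 8 members differed by -0.21 to 0.16 and did not pass.

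**Figure D3:**
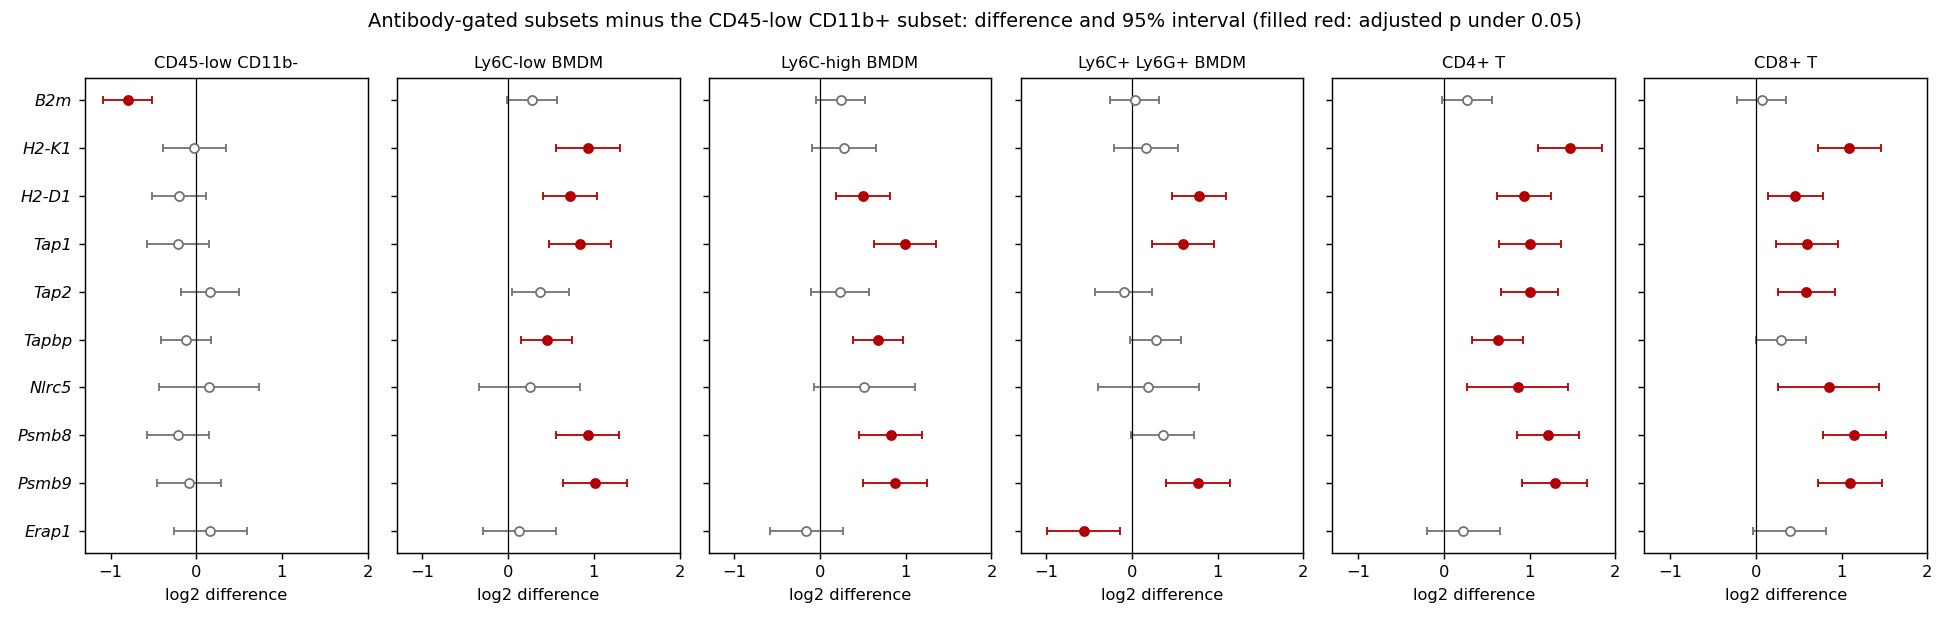
Difference of each gene between an antibody-gated subset and the CD45-low CD11b+ subset (horizontal axes, log2 scale; bars are 95% intervals) in the 4 metastasis-bearing brains. Filled red points passed an adjusted p of 0.05; 8 genes passed in CD4+ T, 7 in CD8+ T, and B2m alone in the CD45-low CD11b- subset.

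The other genes of the pathway were read in the same comparisons, which share their reference, and their counts stand against all genes called higher (11 to 18.1%) or lower (11 to 34.7%) in these subsets. Some lists also hold members, namely Psmb8 and Psmb9 in the first, Erap1 among the peptidases and Nlrc5 among the transcription factors. Of 7 immunoproteasome and activator genes, 5 were higher in each of the Ly6C-low, Ly6C-high, CD4+ T and CD8+ T subsets. The members Psmb8 and Psmb9, already given above, were among the 5 in each. Psmb10, the remaining immunoproteasome subunit, rose by 0.83 in Ly6C-low and 0.95 in Ly6C-high cells. In the Ly6C+ Ly6G+ subset Psmb9 alone of this list rose, and in CD45-low CD11b- cells 0 of 7 were called (limma). Pomp, the assembly factor, fell by 0.42 in CD8+ T cells. Of the 3 constitutive subunits, Psmb5 rose by 0.40 in Ly6C-low, 0.33 in Ly6C-high and 0.30 in CD8+ T cells, and no other call was made in this list.

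Of 18 other class I heavy chains and class I-like genes, 9 could be tested. This list holds H2-Ke6 by mistake, which encodes a dehydrogenase and no class I molecule. In the CD4+ T subset 6 were higher, among them H2-T22 by 1.80 and H2-Q7 by 2.32. In the CD8+ T subset 5 were higher, among them H2-Q7 by 2.36 and H2-T22 by 1.75. The Ly6C-low subset had 4 higher, with H2-T22 at 1.21 and H2-Q7 at 1.41, and the Ly6C-high subset 3 higher, with H2-T22 at 1.07 and H2-T23 at 0.84. H2-Q10 rose by 2.49 in the Ly6C+ Ly6G+ subset, where H2-T22 rose by 0.91. It fell by 0.77 in the Ly6C-high and by 0.82 in the CD45-low CD11b- subset, where H2-T22 rose by 0.58. These genes are near copies of each other, so reads can be split among them.

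Of 6 chaperones of the loading complex, 4 were lower in each of the CD4+ T, CD8+ T, Ly6C+ Ly6G+ and CD45-low CD11b- subsets, where 21.5%, 29.4%, 34.7% and 16.1% of all genes were lower. Canx alone was lower in the Ly6C-low (-0.44) and Ly6C-high subsets (-0.52), where 11% and 19.7% of all genes were, so 1 of 6 is near the background there. Canx, the calnexin that holds new heavy chains, fell by 0.59 in CD4+ T, 0.85 in CD8+ T and 0.88 in Ly6C+ Ly6G+ cells. Calr (calreticulin) fell by 0.58 in CD4+ T, 0.65 in CD8+ T and 0.58 in CD45-low CD11b- cells. Hspa5 fell by 0.90 in CD45-low CD11b- cells and Pdia3 by 0.65 in Ly6C+ Ly6G+ cells. Tapbpl, a relative of tapasin, rose by 0.74 in CD8+ T cells.

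Among 7 trimming and other peptidases, of which 6 were tested, none rose in any of the 6 subsets. The aminopeptidase Lap3 fell in all 6, by 0.55 (CD45-low CD11b-), 0.73 (Ly6C-low), 1.24 (Ly6C-high), 0.66 (Ly6C+ Ly6G+), 1.02 (CD4+ T) and 1.37 (CD8+ T), so it was highest in the shared reference. Tpp2 fell by 0.60 in Ly6C-low and 0.86 in Ly6C-high cells, and Blmh by 0.90 in Ly6C+ Ly6G+ cells.

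Of 14 transcription factors of class I genes, 12 were tested. Nfya, a subunit of the factor that binds the Y box, fell in all 6 subsets, by 0.61 to 1.12, whereas Nfyb rose by 1.00 in CD4+ T, 0.74 in CD8+ T and 0.56 in CD45-low CD11b- cells. Rela fell by 1.14 in CD4+ T and 1.23 in CD8+ T cells, Creb1 by 1.08 in Ly6C+ Ly6G+ cells and Irf1 by 1.02 in CD45-low CD11b- cells, and Irf2 rose by 0.62 in Ly6C-high cells.

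Of 8 genes of interferon gamma and its receptor pathway, 6 were higher in the CD4+ T and in the Ly6C-low subset, 5 in CD8+ T, 3 in Ly6C-high and 2 in Ly6C+ Ly6G+ cells. Of all genes 18.1%, 11%, 16.9%, 15.4% and 12.4% were higher in these subsets. Ifng itself rose by 3.94 in CD8+ T and 2.93 in Ly6C-low cells, the gate with many NK-like cells. Socs1, the feedback inhibitor, rose by 1.43 in CD4+ T and 1.52 in CD8+ T cells, and Jak2 by 1.12 in Ly6C-high and 0.67 in Ly6C+ Ly6G+ cells. Ifngr2 fell by 1.51 in CD45-low CD11b-, 1.11 in CD4+ T and 1.95 in CD8+ T cells, and Irf1 by 0.65 in CD8+ T cells.

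Among 12 class I receptors and co-receptors, of which 11 were tested, the co-receptor genes Cd8b1 and Cd8a were higher in the CD8+ T gate by 5.81 and 5.02, as the gate was set on the protein. The inhibitory receptors Pirb and Lilrb4a rose by 2.22 and 0.93 in Ly6C-high and by 1.98 and 1.44 in Ly6C+ Ly6G+ cells. They fell by 0.99 and 1.37 in CD4+ T, by 1.10 and 1.56 in CD8+ T and by 2.05 and 2.07 in CD45-low CD11b- cells. The NK receptors Klra4 and Klrd1 rose by 3.03 and 3.85 in the Ly6C-low gate and fell by 0.96 and 1.07 in the Ly6C+ Ly6G+ gate. Klrd1 and Cd8b1 rose by 1.35 and 0.98 in CD45-low CD11b- cells, and Klrk1 by 0.99 in CD4+ T cells.

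Loss of the second Cx3cr1 allele was compared within each class of metastasis-bearing brains and in naive microglia-like cells, as homozygous minus heterozygous. No member passed in any of these 7 comparisons (limma), in each of which 9 or 10 members could be tested. Of all genes 0.0814% were called in microglia-like (0.0678% higher and 0.0136% lower), 0.025% in Krt8-high, 0.0143% in monocyte/macrophage-like, 0% in T-like, 0.0476% in NK-like, 0% in vascular-like and 0.572% in naive microglia-like cells, where 31 genes were higher and 13 lower (16 and 15 under median-ratio scaling). At an unadjusted p under 0.05 the members numbered 3 in Krt8-high cells, 1 in NK-like cells and 0 in the other 5 comparisons, where all genes numbered 486 of 8011 in Krt8-high and 254 of 6299 in NK-like cells. In the classes with no call at all, 297 of 6524 genes in T-like and 918 of 8896 in vascular-like cells were under that p. With 2 brains per genotype the intervals were wide in some classes, so the absence of a call does not show that the genotypes are alike.

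In T-like cells the members were close to even. Psmb8 was 933 and 949 CPM in heterozygous and 952 and 932 CPM in homozygous brains, a log2 difference of 0.00 with a 95% interval of -0.16 to 0.16. B2m differed by 0.01 (-0.14 to 0.15) and H2-D1 by -0.08 (-0.25 to 0.09). The widest interval in this class was that of Nlrc5, from -0.61 to 0.18.

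In Krt8-high cells 5 members, B2m, H2-K1, H2-D1, Tapbp and Erap1, had both homozygous above both heterozygous brains, a pattern shown by 14.8% of all genes tested. None passed the test. The log2 differences were 0.32 for B2m (95% interval 0.10 to 0.54), 0.28 for H2-D1 (0.10 to 0.47) and 0.45 for Tapbp (0.01 to 0.89), each with a limma adjusted p of 0.787. They were 0.25 for H2-K1 and 0.23 for Erap1. Psmb9 differed by -0.38 (-1.20 to 0.44) and Tap1 by -0.03 (-0.78 to 0.72), and for these the heterozygous brains were the most unlike, at 20.3 and 69.2 CPM for Psmb9.

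In Krt8-high cells B2m and H2-D1 were higher and passed whichever heterozygous brain was left out, while Tap1 and Psmb8 changed sign between these fits. Without heterozygous brain 1, 6 members passed, where 25.3% of all genes were called. B2m (0.23) and H2-D1 (0.30) were higher, while Tap1 (-0.65), Tap2 (-0.33), Psmb8 (-0.39) and Psmb9 (-1.07) were lower in the homozygous brains. Without heterozygous brain 2, 6 members passed as well, with 2.16% of all genes called, and all were higher, namely B2m (0.41), H2-K1 (0.43), H2-D1 (0.27), Tap1 (0.59), Tapbp (0.68) and Psmb8 (0.49). Such a fit holds 1 heterozygous brain, which is assumed to vary like the homozygous ones.

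With metastases, microglia-like cells of heterozygous brain 1 were the lowest for every member but Erap1. H2-D1 in this class was 1333 and 2165 CPM in heterozygous and 2088 and 2199 CPM in homozygous brains, and Tap1 was 53.5, 90.4, 92 and 94.7 CPM. The log2 differences were 0.33 for H2-D1 (95% interval -0.15 to 0.82, limma adjusted p = 0.677) and 0.37 for Tap1 (-0.16 to 0.91, limma adjusted p = 0.673). Without heterozygous brain 1 they became -0.01 and 0.04, and H2-K1 went from 0.24 to -0.17 and Psmb8 from 0.16 to -0.11. Without heterozygous brain 2, B2m (0.60) and H2-D1 (0.68) passed, with 1.07% of all genes called. In heterozygous brain 1 the microglia-like cells also had the highest sum of 7 neutrophil markers, at 1075 CPM against 119 to 145 CPM, and the lowest sums of T cell markers (22.2 against 136 to 249 CPM) and NK cell markers (6.60 against 110.3 to 249 CPM). The part of such RNA, and of the brain's tumour load, in the genotype values was not tested.

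In the remaining classes the members' differences lay between -0.48 (Psmb9, vascular-like, 95% interval -1.15 to 0.20) and 0.43 (Erap1, NK-like, -0.43 to 1.28). Tap1 in NK-like cells was 99.1 and 131 CPM in heterozygous and 169 and 138 CPM in homozygous brains, a difference of 0.40 (limma adjusted p = 0.927). Without heterozygous brain 2, 5 members passed in NK-like cells (B2m 0.19, H2-K1 0.17, Tap1 0.58, Tapbp 0.74 and Erap1 1.02), where 14.7% of all genes were called. In monocyte/macrophage-like cells B2m (0.40) and H2-K1 (0.45) passed without the same brain, where 3.31% of all genes were called. Leaving out either homozygous brain gave no member a call in any class. None of the lists of other pathway genes had a call in the 7 genotype comparisons (limma).

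**Figure D4:**
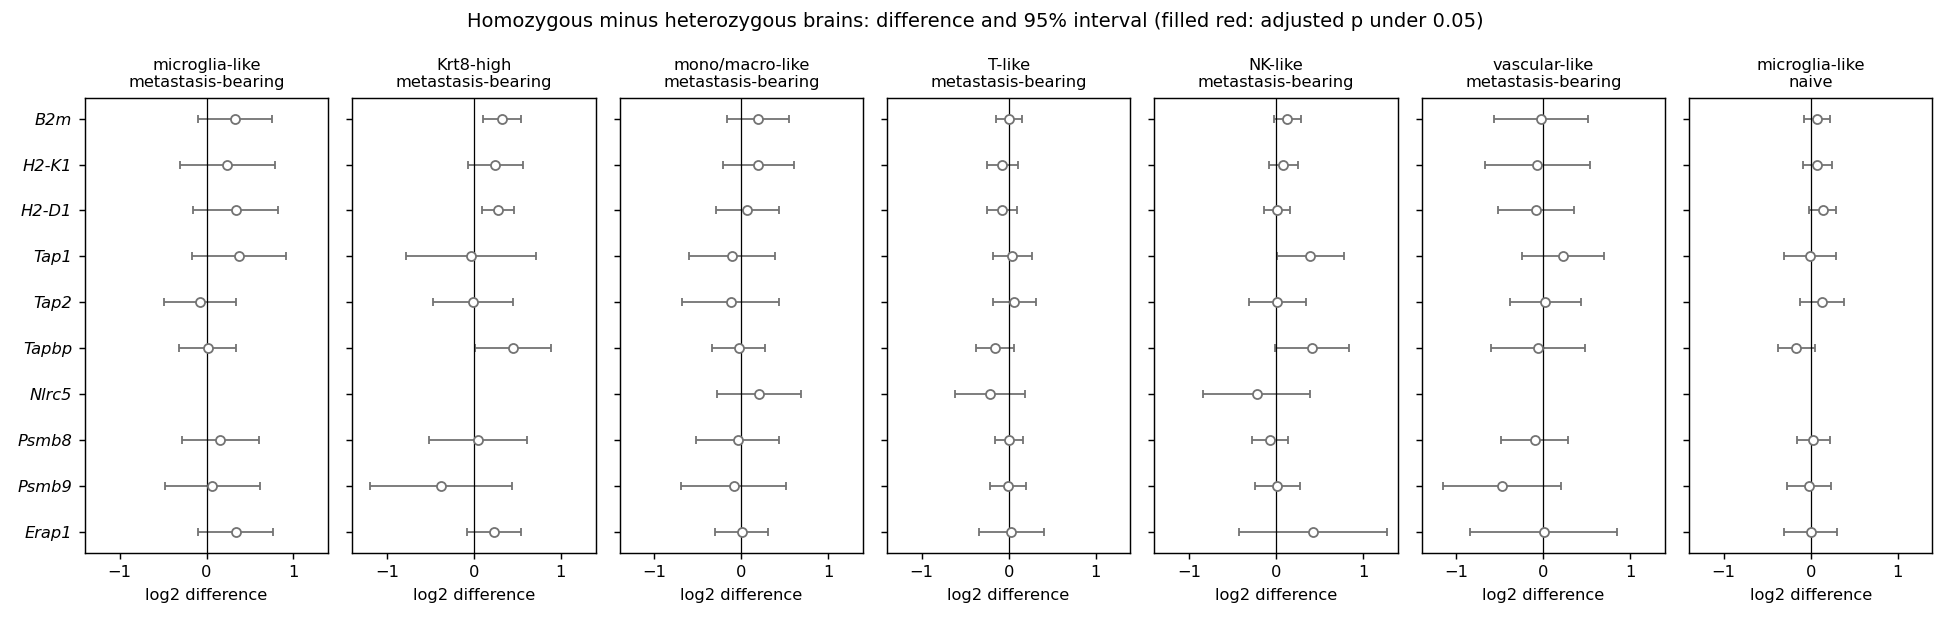
Difference between homozygous and heterozygous brains for each gene (horizontal axes, log2 scale; bars are 95% intervals, 2 brains per genotype) in 6 classes of metastasis-bearing brains and in naive microglia-like cells. No point is filled red, as none passed an adjusted p of 0.05. Intervals extend at most 0.40 to either side of their own point in T-like and 0.30 in naive microglia-like cells. Nlrc5 is missing where it was under the filter of 10 CPM.

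In naive microglia-like cells the brains were much alike. B2m was 1707 and 1738 CPM in heterozygous and 1869 and 1761 CPM in homozygous brains, a difference of 0.07 (95% interval -0.07 to 0.22). H2-D1 was 941, 922, 1092 and 964 CPM, a difference of 0.14 (-0.02 to 0.29, limma adjusted p = 0.665). B2m, H2-D1 and Tap2 had both homozygous above both heterozygous brains here, as had 23.4% of all genes tested. The genotype difference in metastasis-bearing minus that in naive microglia-like cells was also tested, and 0 of 9 members passed (limma), with 0 at an unadjusted p under 0.05 and 0.0142% of all genes called. It was 0.25 for B2m (-0.19 to 0.69) and 0.38 for Tap1 (-0.22 to 0.98).

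Microglia-like cells of the 2 states were set side by side without a test, because the depth correction was fitted to each table apart. Of the 10 members, 7 lay higher in all 4 metastasis-bearing than in all 4 naive brains, namely B2m, H2-K1, H2-D1, Tap1, Tapbp, Psmb8 and Psmb9. Of 7065 genes above 10 CPM in both tables, 8.99% had all metastasis-bearing brains above and 18.1% all below, and 0 members were below. H2-K1 was 901, 1592, 1440.3 and 1393 CPM in metastasis-bearing and 718, 709, 817 and 695 CPM in naive brains. Tap1 was 53.5 to 94.7 CPM against 33.8 to 39.3 CPM.

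The ratio of the state means was 2.26 for Tap1, 1.99 for H2-D1, 1.83 for B2m, 1.81 for H2-K1, 1.67 for Psmb9, 1.63 for Psmb8, 1.18 for Tapbp, 1.10 for Tap2 and 1.09 for Erap1, beside a median of 0.900 over all genes. Nlrc5, at a ratio of 2.81, was under 10 CPM on average in both states, and 1 naive brain (6.23 CPM) lay within the metastasis-bearing range of 5.06 to 15 CPM. The effect of the 2 corrections was measured in 147 barcodes that stood in both tables and were microglia-like in the metastasis table. The same cells read 1.12 times as high in the metastasis table for H2-D1, 1.11 for B2m, 1.10 for Tapbp, 1.06 for H2-K1, 1.05 for Psmb8, 1.04 for Psmb9 and 0.974 for Tap1. For Tapbp that is close to its ratio of 1.18 between the states, and for the other 6 it is smaller.

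Markers of other cells moved with the state as well. In microglia-like cells the sum of 9 monocyte and macrophage markers was 448, 607, 803 and 849.6 CPM in metastasis-bearing brains and 327 to 450.2 CPM in naive ones. The sum of 10 microglia markers was 12257 to 16086 CPM against 17851 to 22209 CPM, and that of 7 NK cell markers 6.60 to 249 CPM against 5.19 to 7.85 CPM. Heterozygous brain 1 of the metastasis-bearing state had T and NK cell marker sums near the naive range (22.2 and 6.60 CPM), the highest neutrophil marker sum of all 8 brains, and more B2m, H2-K1, H2-D1 and Tap1 than every naive brain. The part of these cells in the other 3 brains was not tested.

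**Figure D5:**
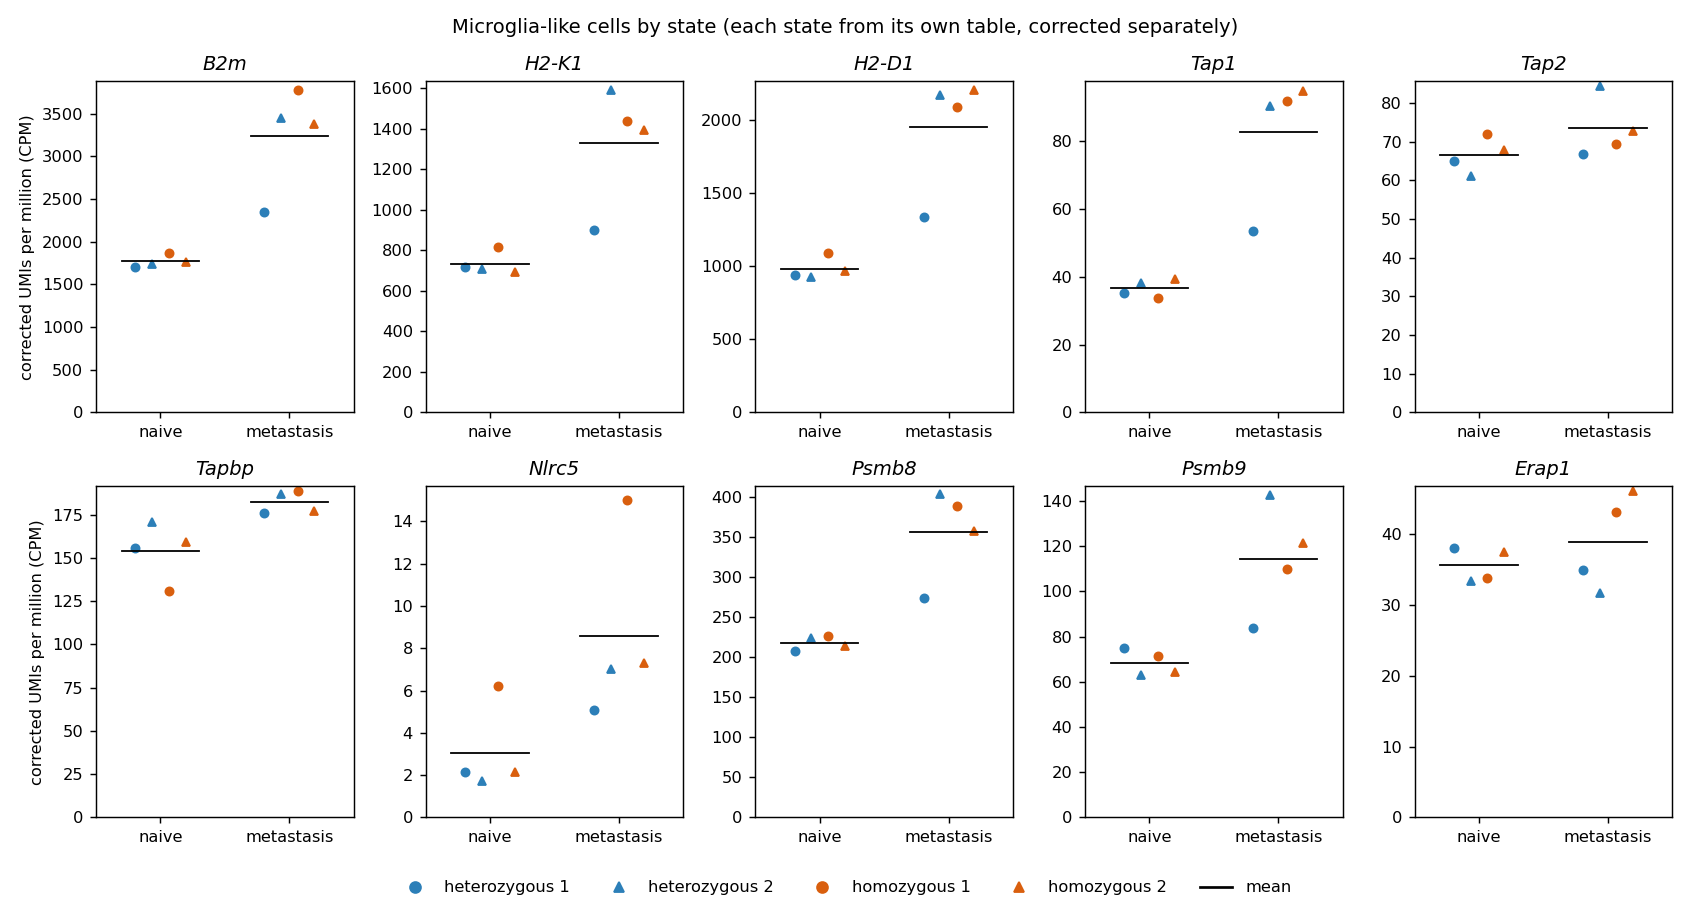
Level of each gene (vertical axes, corrected UMIs per 1000000, from 0) in microglia-like cells of naive and metastasis-bearing brains, points being brains and bars means. The 4 metastasis-bearing points lie above the 4 naive points for 7 genes, such as H2-D1 (1333 to 2199 against 922 to 1092), and the 2 states come from tables corrected separately.

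Other naive classes kept the order of the metastasis-bearing ones only in part. Among the named classes, T/NK-like cells were highest in B2m (2632 ± 149, n = 4), H2-K1 (3359 ± 213) and H2-D1 (3027 ± 50.2). The unnamed cluster 2 of naive brains (n = 3) averaged more B2m, at 2888 ± 290 CPM. It was also above T/NK-like cells in mean Tap1 (244 against 107 CPM), Psmb8 (802 against 727 CPM) and Psmb9 (303 against 197 CPM). Its means of H2-K1 (2140 CPM) and H2-D1 (2915 CPM) were lower. Vascular-like cells had 1664 ± 512 CPM of H2-K1, above microglia-like cells (735 ± 55.4) in every brain, and homozygous brain 1 stood above the other 3 with 2404 CPM. Krt8-high cells, found in naive brains although no tumour cells had been injected, numbered 44, 21 and 60 in the 3 brains with at least 20. In H2-D1 they had 947, 1270 and 1157 CPM, above the microglia-like cells of the same brains (941, 922 and 964 CPM). In Tap1 (32.1 to 89.6 CPM) and Psmb8 (116 to 311 CPM) they overlapped microglia-like cells (33.8 to 39.3 and 208 to 227 CPM). They had 569, 843 and 714 CPM of B2m and 185, 548 and 418 CPM of H2-K1. Their monocyte and macrophage marker sums were 282, 2324 and 1506.5 CPM, in the same order as H2-K1, against 33.1 to 89.3 CPM in metastasis-bearing Krt8-high cells, and the part of such RNA in their levels was not tested.

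Over 28 units of brain and class in metastasis-bearing brains, across 8 classes, the genes whose log2 level was among the most like the mean of the members were Psme1 (Pearson r = 0.975), Psmb10 (0.948) and Psme2 (0.939). Sp110 (0.922), Sp100 (0.921), H2-Q7 (0.910), Shisa5 (0.898), H2-T23 (0.893) and Atp6v1f (0.890) followed. Psme1 and Psme2 form an activator of the proteasome. Among the members themselves Psmb8 was most like the mean, at 0.981, and H2-D1 the least of those above 50 CPM, at 0.846. Each member is itself part of that mean, which raises its value, so members and other genes are not compared. Units of one brain share a preparation and depth, so these values describe the table and have no test.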

How the data were processed

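RNA, 35 surface antibody tags and hashtags were sequenced as 3 libraries from 1 pooled preparation of 8 brains. Per the submitters' processing notes, Cell Ranger 3.1 and Seurat 3.1.1 were used with mm10. The authors deposited natural log values, ln(1 + corrected UMI), in 1 table per state, each corrected for depth separately, and 100% of nonzero values came out whole within a relative 1e-06 when turned back. The deposited metadata gave raw UMI counts, hashtag counts, the brain and singlet call of each cell, its cluster and its antibody gate. No further doublet caller was run. Corrected UMIs were summed per brain and class (at least 20 cells), divided by the total and multiplied by 1000000 (CPM). Tests used limma 3.58.1 on log2(CPM + 10), for genes with a mean above 10 CPM, with a variance trend and Benjamini-Hochberg adjustment at 0.05, and were checked on simulated data. All 10 members are named in each comparison by rule. From each other list the 2 genes with the smallest p per direction are named where any passed, and the 10 genes most like the members above 50 CPM. 1 gene that these rules name is not reported here. Members, lists and tests were chosen with earlier results of these data known. Brains are the replicates, but they shared 1 preparation, so genotype p-values measure the spread between these brains. Brain was a block in the gated comparisons, so their p-values measure how subset differences vary from brain to brain.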

Additional observations from a re-analysis of the deposited data

Results flagged for a closer look

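In 90 groups of 4 brains, formed by member, class and state, the highest or lowest brain was set against the others by Dixon's test, which chance alone flags in about 1 of 20 groups. It marked 7 groups. In metastasis-bearing brains heterozygous brain 1 stood low in 4 of them. There it had 1333 CPM of H2-D1 in microglia-like cells (2088 to 2199 CPM in the others), 53.5 CPM of Tap1 in the same cells (90.4 to 94.7 CPM), 2748 CPM of B2m in monocyte/macrophage-like cells (3594 to 3648 CPM) and 137 CPM of Tap2 in T-like cells (152 to 154 CPM). Heterozygous brain 2 stood high in Psmb8 of NK-like cells, with 708 CPM against 629 to 636 CPM. In naive brains homozygous brain 1, the one with the fewest cells, had 6.23 CPM of Nlrc5 in microglia-like cells (1.73 to 2.16 CPM) and 2323 CPM of B2m in vascular-like cells (1475 to 1606 CPM). What sets these brains apart was not tested.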

How the results depend on the processing

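Beside the reported setting, pseudocounts of 1 and 50, no filter, no variance trend, median-ratio scaling, all deposited cells, the antibody gate for microglia and leaving out each brain were run. Of the counts of members called, 146 stayed within 1.5 times the reported count and 5 rose, all on leaving out 1 heterozygous brain. Across these fits the members called by genotype ranged from 0 to 6 in Krt8-high, 0 to 5 in NK-like, 0 to 2 in microglia-like and 0 to 2 in monocyte/macrophage-like cells, and stayed at 0 in T-like, vascular-like and naive microglia-like cells. In Krt8-high cells leaving out heterozygous brain 1 gave -0.39 for Psmb8 and -0.65 for Tap1, and leaving out heterozygous brain 2 gave 0.49 and 0.59, each called, so both genes changed sign with the brain left out. The cause was not tested. In the gated subsets the count of members ranged from 8 to 8 in CD4+ T, 5 to 6 in CD8+ T, 5 to 6 in Ly6C-low, 4 to 5 in Ly6C-high, 3 to 4 in Ly6C+ Ly6G+ and 1 to 1 in CD45-low CD11b- cells when 1 brain was left out. The 8 members of CD4+ T cells were not the same in every fit, as B2m replaced Nlrc5 without heterozygous brain 2. Sign changes of differences that passed in neither fit numbered 97 and were not counted as reversals. Among levels, 1 of 100 moved by more than 1 SD, Erap1 in naive Krt8-high cells (7.15 CPM with all cells). The window of 5000 to 15000 raw UMIs held too few Krt8-high cells and was not run for that class. No paired analysis was possible because brain numbers are not shared between genotypes by animal. With 2 brains per genotype, each genotype difference rests on few brains, and Nlrc5 was under the filter of 10 CPM in some classes.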

Other observations

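The unnamed cluster 5 of metastasis-bearing brains, which belongs to none of the classes above, averaged 1412 CPM of B2m, 1261 CPM of H2-K1 and 1766 CPM of H2-D1. Its Nlrc5 mean was 33.7 CPM, with brains from 8.88 to 46.7 CPM, beside a mean of 31.8 CPM in T-like cells. The B-like cells of heterozygous brain 2, the 1 metastasis-bearing brain with enough of them, had a ratio of H2-K1 to H2-D1 of 0.687 and a Psmb8 share of 75.6%.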
